A study of Mus musculus with 12 samples.

Results

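Bcl6, a transcriptional repressor gene, was the only one of 8 FOXO and KLF2 quiescence and homing genes whose RNA changed past the test threshold when cells of a mouse T cell leukaemia clone received the translation inhibitor 4EGI-1. It fell 1.45-fold in cytoplasmic RNA and 1.24-fold in polysomal RNA. Of all genes tested, 17.8% changed in cytoplasmic and 25.2% in polysomal RNA, both larger shares than 1 of 8. The other 7 genes, which encode the transcription factors FOXO1, FOXO3 and KLF2, the receptors S1PR1, CCR7 and IL7R and the PI3-kinase inhibitor PIK3IP1, did not pass the test for a 4EGI-1 effect in either fraction. The 8 genes were selected by name, and each had 1 probe set on the array, and all 8 were among the 13180 genes that passed a filter on dim signal, out of 19937 genes with a symbol.

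RNA was profiled on single-colour microarrays in clone 483, a T cell acute lymphoblastic leukaemia (T-ALL) of C57BL6 mice, so every value comes from 1 clone. 4EGI-1, which keeps eIF4E, the cap-binding protein, from joining the scaffold eIF4G, was given to the treated cells at 100 µM for 2 h. The control cells are called untreated in the labels, while the protocols name the solvent DMSO. From each condition 2 kinds of RNA were taken, pooled polysome fractions of a sucrose gradient and a reference that the labels call cytoplasmic. The titles call that reference total, and by the design text it came from whole cells, in which case nuclear RNA would be part of it. This gives 4 groups of 3 arrays: cytoplasmic control, cytoplasmic 4EGI-1, polysomal control and polysomal 4EGI-1. Arrays of a group are called arrays 1 to 3 after the numbers in their titles.

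FOXO transcription factors are held in the cytoplasm when the kinase AKT, acting downstream of PI3-kinase, phosphorylates them, and they enter the nucleus when that signal is low. In T cells nuclear FOXO1 switches on Klf2, Il7r and Ccr7, and KLF2 in turn drives S1pr1, so that resting cells survive on interleukin 7 and circulate between blood and lymph nodes. Both FOXO proteins are therefore controlled largely by their location, which RNA does not report.

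Values are log2 numbers made by the authors with RMA, in which every array is brought to a common scale. A difference is thus relative to the other genes on the array, levels are not comparable between genes, and the total amount of polysomal RNA is not measured. In such bulk RNA, fewer cells that hold an RNA and less of it per cell cannot be told apart. Differences are given with their standard error (SE) from a limma fit over all 12 arrays, and p-values are adjusted by Benjamini-Hochberg over the 13180 genes, with a threshold of 0.05. They measure the spread between arrays, which may be technical. Arrays of a group correlated across genes at 0.985 to 0.997, and the median gene had a standard deviation (SD) of 0.121 to 0.133 in the cytoplasmic groups and 0.0745 to 0.0761 in the polysomal groups. Of 14 listed T cell markers, 13 had a value and all 13 were above the filter level of 6.003, with means over the arrays from 6.61 to 12.19, among them Rag1, Ptcra and Cd8a. Markers of B cells (3 of 6), myeloid cells (2 of 8), natural killer cells (1 of 4), red cells (2 of 2) and stroma (4 of 5) were above that level too, with means of at most 7.21. Among B cell markers Pax5 (6.67), Blk (6.25) and Cd79b (6.19) were above it and Cd79a (4.70), Ms4a1 (4.42) and Cr2 (5.64) below. Among myeloid markers Itgam (6.74) and Mpo (6.27) were above it, and the other 6, Lyz2 (5.28) among them, were below. With 4EGI-1, 1 T cell marker was lower in cytoplasmic RNA, and 1 was higher and 2 were lower in polysomal RNA. Outside the T cell list, 1 myeloid marker was higher and 1 red cell and 1 stromal marker were lower in cytoplasmic RNA, and 1 natural killer marker was lower in polysomal RNA. The part of these shifts in the results was not tested.

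**Figure D1:**
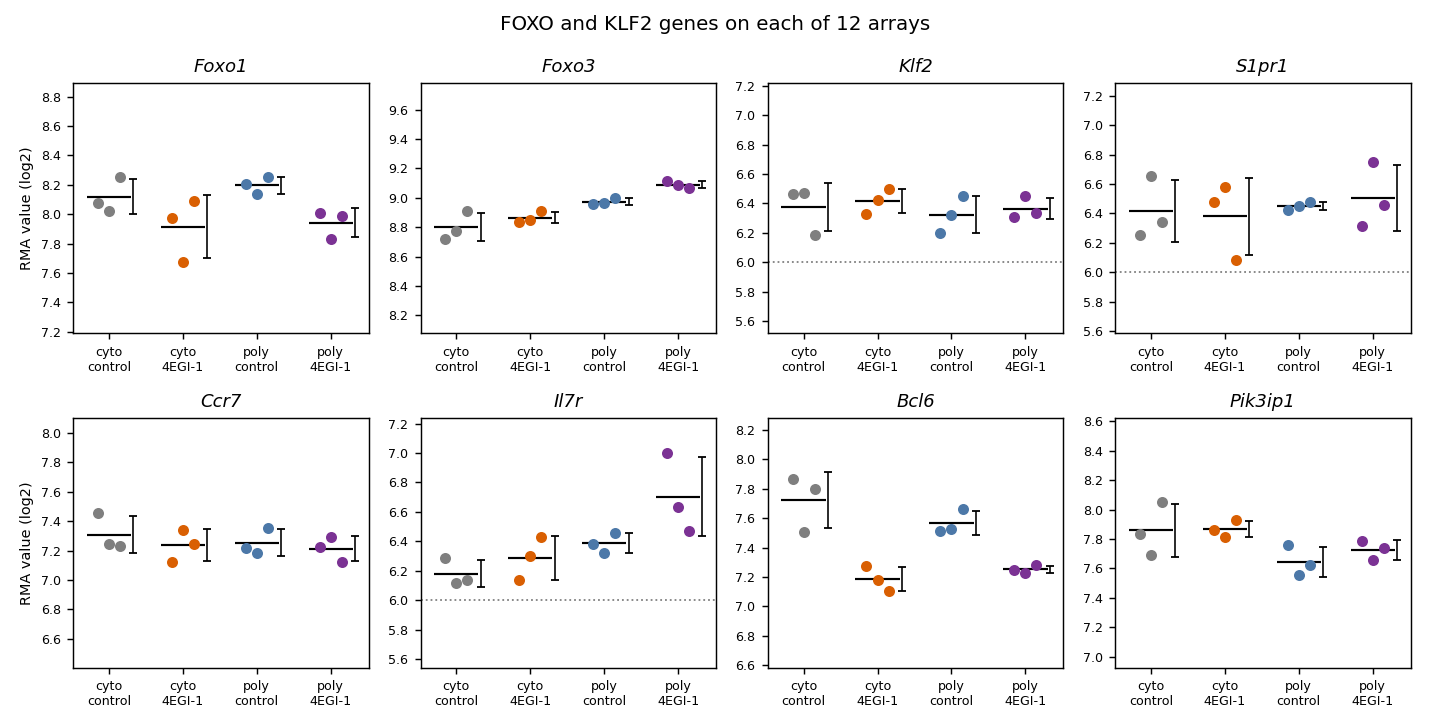
RMA values (log2, vertical axes, each spanning the same width) of the 8 genes on each of 12 arrays, by group (cyto, cytoplasmic; poly, polysomal). Horizontal lines are means of 3 arrays, vertical bars are ± 1 SD, and the dotted line is the filter level of 6.003. The 4EGI-1 arrays of Bcl6 lie below the control arrays in both fractions, while the groups of Klf2, S1pr1 and Ccr7 overlap.

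Bcl6 encodes a zinc finger repressor that is known in lymphocytes for holding back differentiation, and FOXO factors are known to promote its expression while STAT5 represses it. Its RefSeq promoter windows are shown because Bcl6 is the gene that changed. They are 250 bases before each of 2 annotated starts on the minus strand of chromosome 16 of GRCm38.p6, chr16:23988853-23989102 and chr16:23981284-23981533. Capitals mark matches to TTCNNNGAA, the core that STAT factors bind.
Bcl6 upstream window: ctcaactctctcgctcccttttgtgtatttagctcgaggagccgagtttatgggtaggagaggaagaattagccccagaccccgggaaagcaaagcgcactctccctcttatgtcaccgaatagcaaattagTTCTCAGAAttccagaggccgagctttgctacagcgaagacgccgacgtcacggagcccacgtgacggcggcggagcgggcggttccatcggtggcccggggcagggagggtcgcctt
Bcl6 downstream window: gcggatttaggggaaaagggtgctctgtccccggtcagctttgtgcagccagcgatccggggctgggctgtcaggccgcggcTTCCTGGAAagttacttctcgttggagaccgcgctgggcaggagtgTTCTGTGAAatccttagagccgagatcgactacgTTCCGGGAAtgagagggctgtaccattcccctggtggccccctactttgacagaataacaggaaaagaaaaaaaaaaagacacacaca

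Of the 8 genes, 6 had RefSeq windows of 300 bases (250 before and 50 after a start), 7 windows in all. On both strands TTCNNNGAA was in 3 of these 7, both of Bcl6 and that of Il7r, against 8.3% of 32851 windows of all genes. The first Bcl6 window held it 118 bases upstream of the start, and the second 168, 122 and 88 bases upstream. The match 168 bases upstream was also a match to TTCCTNGAA, a form bound by BCL6 itself, which is in 1.59% of all windows and overlaps the STAT core by its letters. The FOXO motif GTAAACA, found in 3.65% of all windows, was in none of the 7, which says only that these letters are not in these windows. CCACCC, a core bound by KLF factors, was in the windows of Klf2 and Pik3ip1 and in 31.5% of all windows. These matches are descriptions of sequence, and the motifs were chosen after the expression values were seen.

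In cytoplasmic RNA, Bcl6 read 7.87, 7.50 and 7.80 on control arrays 1 to 3 and 7.27, 7.18 and 7.10 on the 4EGI-1 arrays. All 4EGI-1 arrays were below all control arrays. The difference was -0.54 ± 0.09 (SE, n = 3 arrays per group; limma, adjusted p = 0.00106). Of all genes tested, 7.79% fell in this comparison, 10.1% rose and 17.8% changed in either direction. Nothing particular to the 8 genes can be read from 1 call. The fall passed in each of the 12 fits that left out 1 array, at -0.65 to -0.46.

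In polysomal RNA, Bcl6 read 7.51, 7.53 and 7.66 on control arrays and 7.25, 7.23 and 7.28 on 4EGI-1 arrays, again with no overlap. The difference was -0.32 ± 0.09 (limma, adjusted p = 0.0217). In polysomal RNA 12.1% of all genes fell and 25.2% changed. This call ended without polysomal control array 3 (adjusted p = 0.0995, limma) and without polysomal 4EGI-1 array 1 (0.061), 2 (0.0681) or 3 (0.0511), with differences of -0.33 to -0.27. The polysomal fall was 0.22 ± 0.13 smaller than the cytoplasmic one, which did not pass as a difference of effects (adjusted p = 0.53, limma; 95% interval -0.06 to 0.50). The order of the group means was cytoplasmic 4EGI-1 (7.19 ± 0.0844, SD), polysomal 4EGI-1 (7.25 ± 0.026), polysomal control (7.57 ± 0.0831) and cytoplasmic control (7.72 ± 0.193). Neighbours of the same treatment overlapped between fractions.

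The gene whose values followed Bcl6 most closely over the 12 arrays was Irs2, an insulin receptor adaptor gene and itself a textbook FOXO target (Pearson r = 0.94). Its changes were -0.46 ± 0.10 in cytoplasmic (limma, adjusted p = 0.00643) and -0.30 ± 0.10 in polysomal RNA (0.0434). The call in cytoplasmic RNA ended with the 6 cytoplasmic arrays fitted by themselves (limma, adjusted p = 0.0508). The polysomal call ended without any single polysomal array other than 4EGI-1 array 3 (adjusted p from 0.0686 to 0.162) and without cytoplasmic control array 1 (0.0523) or cytoplasmic 4EGI-1 array 1 (0.0559). It also ended without a filter (limma, adjusted p = 0.0765) and with centring on array medians (0.0801). Frmd4a and Slc45a4 followed at 0.94 for each. The 12 arrays share groups and cultures, so such correlations describe these arrays only.

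Foxo1 encodes the FOXO factor that drives the homing programme in T cells. In cytoplasmic RNA it read 8.08, 8.03 and 8.25 on control arrays and 7.97, 7.68 and 8.09 on 4EGI-1 arrays, which overlapped. In polysomal RNA it read 8.20, 8.13 and 8.25 on control arrays and 8.01, 7.83 and 7.99 on 4EGI-1 arrays, all of them lower. The differences were -0.20 ± 0.10 (limma, adjusted p = 0.2) and -0.25 ± 0.10 (0.0901), and neither passed. The polysomal one passed at -0.25 when the 6 polysomal arrays were fitted by themselves (limma, adjusted p = 0.0119), at -0.26 after quantile normalization within fractions (0.044), and at -0.25 without cytoplasmic 4EGI-1 array 2 (0.041). It also passed at -0.25 with array number as a block in the fit (0.0284), though the numbers were not taken to pair the samples. Levels of Foxo1 in the fractions overlapped within each treatment, and the genes most like it over the arrays were Polr3d, Auh and Mtmr14 (r = 0.94 to 0.96).

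Foxo3 encodes a second FOXO factor with overlapping targets. Its group means ran from cytoplasmic control (8.80 ± 0.0967, SD) through cytoplasmic 4EGI-1 (8.87 ± 0.0397) and polysomal control (8.97 ± 0.0229) to polysomal 4EGI-1 (9.09 ± 0.0237). Its cytoplasmic arrays were at 8.72, 8.77 and 8.91 for control and 8.84, 8.85 and 8.91 for 4EGI-1, and these overlapped. The polysomal 4EGI-1 arrays, at 9.11, 9.08 and 9.07, lay above the polysomal controls, at 8.96, 8.97 and 8.999, but the difference of 0.11 ± 0.07 did not pass (limma, adjusted p = 0.297), and neither did the cytoplasmic difference of 0.06 ± 0.07 (0.593).

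Klf2 and S1pr1, the transcription factor gene and the gene of the receptor that lets lymphocytes leave tissue towards sphingosine 1-phosphate, were close to the filter level, with means over the arrays of 6.37 and 6.44. No detection calls were used here, so it is not known whether these values stand above background. It is not known either for Ccr7 (mean 7.25) or for Bcl6 on 4EGI-1 arrays (7.19 cytoplasmic, 7.25 polysomal). Stromal markers had means up to 7.21. Klf2 read 6.47, 6.47 and 6.18 on cytoplasmic control arrays and 6.33, 6.42 and 6.50 on cytoplasmic 4EGI-1 arrays. In polysomal RNA it read 6.20, 6.32 and 6.45, then 6.31, 6.45 and 6.34. All 4 groups overlapped, and the 4EGI-1 effects were 0.04 ± 0.10 in both fractions (95% intervals -0.16 to 0.25 in each).

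S1pr1 read 6.25, 6.65 and 6.34 on cytoplasmic control arrays and 6.48, 6.58 and 6.08 on cytoplasmic 4EGI-1 arrays. In polysomal RNA the control arrays were at 6.42, 6.45 and 6.48 and the 4EGI-1 arrays at 6.31, 6.75 and 6.46. Its groups overlapped as well, with effects of -0.03 ± 0.14 (95% interval -0.33 to 0.26) and 0.06 ± 0.14 (-0.24 to 0.35). Among the 8 genes these intervals were the widest. Over the 12 arrays the correlation between Klf2 and S1pr1 was 0.10.

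Ccr7 encodes the chemokine receptor that guides T cells into lymph nodes. It read 7.45, 7.24 and 7.23 on cytoplasmic control arrays, 7.13, 7.34 and 7.25 on cytoplasmic 4EGI-1 arrays, 7.22, 7.18 and 7.36 on polysomal control arrays and 7.22, 7.29 and 7.12 on polysomal 4EGI-1 arrays. All 4 groups overlapped. The 4EGI-1 effects were -0.07 ± 0.09 (95% interval -0.26 to 0.12) in cytoplasmic and -0.04 ± 0.09 (-0.23 to 0.15) in polysomal RNA.

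Il7r encodes the interleukin 7 receptor alpha chain, which supports survival of T cells and of many T-ALL cells. On cytoplasmic control arrays it read 6.29, 6.12 and 6.14, and on cytoplasmic 4EGI-1 arrays 6.13, 6.30 and 6.43. On polysomal control arrays it read 6.38, 6.32 and 6.46, and on polysomal 4EGI-1 arrays 7.001, 6.64 and 6.47. The polysomal 4EGI-1 arrays were above their controls, the lowest of them by a narrow margin, and array 1 stood highest. The polysomal difference of 0.32 ± 0.12 did not pass (limma, adjusted p = 0.0635). It passed at 0.32 when the 6 polysomal arrays were fitted by themselves (0.0418), at 0.43 without polysomal 4EGI-1 array 3 (0.0204) and at 0.32 without cytoplasmic 4EGI-1 array 3 (0.0476), and it was 0.17 without polysomal 4EGI-1 array 1. Most of these values lie near the filter level, so the size of any difference is uncertain.

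Pik3ip1 encodes a membrane protein that inhibits PI3-kinase. It read 7.83, 7.69 and 8.05 on cytoplasmic control arrays and 7.86, 7.82 and 7.93 on cytoplasmic 4EGI-1 arrays. The polysomal arrays were at 7.76, 7.55 and 7.62 for control and 7.79, 7.65 and 7.74 for 4EGI-1. The effects were 0.01 ± 0.09 (95% interval -0.19 to 0.21) and 0.08 ± 0.09 (-0.12 to 0.28). In cytoplasmic RNA the 95% intervals of all 7 genes other than Bcl6 lay above -0.54, the change of Bcl6 there. In polysomal RNA the interval of Foxo1 (-0.48 to -0.03) held the polysomal change of Bcl6 (-0.32), and those of the other genes lay above it. These intervals are not adjusted for the number of genes.

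For the 6 genes other than Bcl6 and Foxo1, the nearest genes over the 12 arrays were as follows, as a description of these arrays. Foxo3 was followed by Lin9, Hdgfl3 and Pitpnc1 (r = 0.95 to 0.97) and Pik3ip1 by Trappc9, Arhgap27 and Zfp384 (0.93 to 0.94). Il7r was followed by Zfp248, Nf1 and Plcl1 (0.87 to 0.89) and Ccr7 by Dlg5, Zfp771 and Dhh (0.81 to 0.85). Klf2 was followed by Rell2, Atp2a1 and Osr2 (0.78 to 0.81) and S1pr1 by Prm3, Art1 and Npff (0.89 to 0.91).

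**Figure D2:**
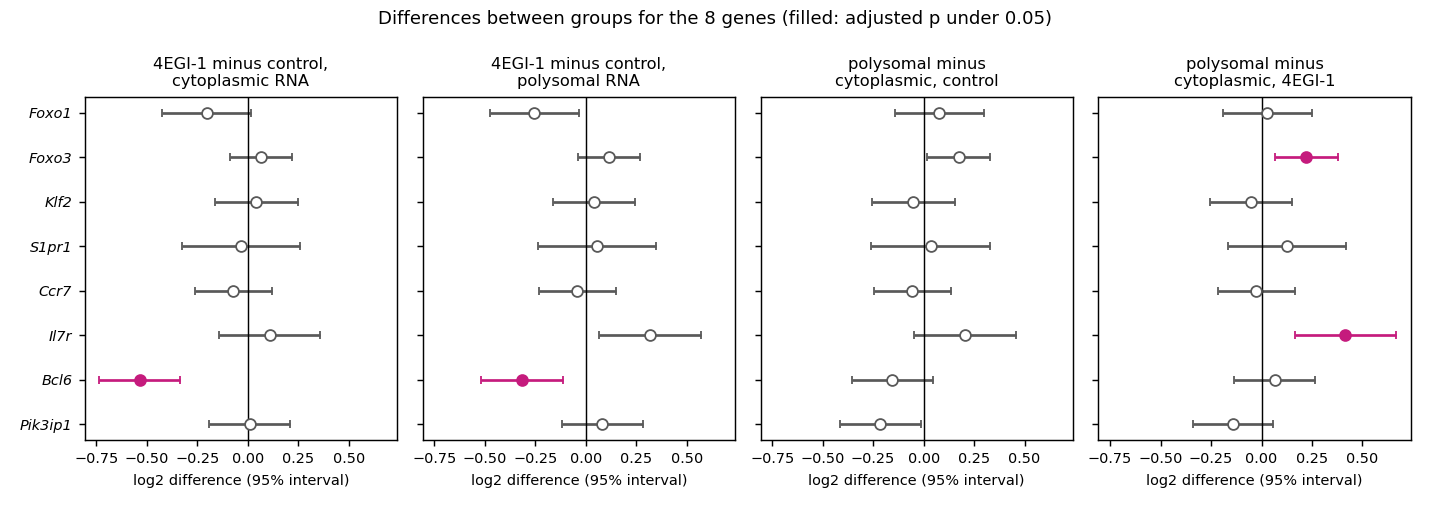
Log2 differences between groups (horizontal axes) for the 8 genes, with 95% intervals from the limma fit over 12 arrays, not adjusted for the number of genes. Filled points passed at an adjusted p of 0.05: Bcl6 in both 4EGI-1 comparisons (-0.54 and -0.32), and Foxo3 (0.22) and Il7r (0.42) for polysomal against cytoplasmic RNA in 4EGI-1 cells.

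Over the 8 genes, the median 4EGI-1 effect was -0.01 in cytoplasmic and 0.05 in polysomal RNA, against -0.03 for all genes tested in each. For the difference of the effects (polysomal minus cytoplasmic), 0 of 8 genes passed with limma, and 2.92% of all genes passed (2.31% higher, 0.607% lower). With limma, 0 of the 8 had an unadjusted p below 0.05, and that share was not counted over all genes. The differences lay between -0.05 (Foxo1) and 0.22 (Bcl6).

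Polysomal against cytoplasmic RNA sets the RNA found with several ribosomes against the reference, relative to other genes. Nuclear RNA in that reference, if present, would enter the difference as well. In control cells 0 of the 8 genes passed with limma, while 2 had an unadjusted p below 0.05, Foxo3 with 0.17 ± 0.07 (adjusted p = 0.0902) and Pik3ip1 with -0.21 ± 0.09 (0.103). Of all genes 29% passed the adjusted threshold there, and the share with an unadjusted p below 0.05 was not counted. In 4EGI-1 cells Foxo3 was higher in polysomal RNA by 0.22 ± 0.07 (limma, adjusted p = 0.049) and Il7r by 0.42 ± 0.12 (0.0267), so 2 of 8 genes were higher, where 9.56% of all genes were higher, 7.15% lower and 16.7% passed in all. In both genes all polysomal 4EGI-1 arrays were above all cytoplasmic 4EGI-1 arrays. The control arrays of both genes were parted in the same way, with a difference of 0.21 ± 0.12 for Il7r (limma, adjusted p = 0.221). For Pik3ip1 all polysomal 4EGI-1 arrays were below all cytoplasmic ones, but the difference of -0.14 ± 0.09 did not pass (0.335). The share of all genes without such overlap was not counted, here or in the 4EGI-1 comparisons, so parted arrays are given as description only.

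The Foxo3 call ended without cytoplasmic 4EGI-1 array 1, 2 or 3 (limma, adjusted p = 0.125, 0.105 and 0.0586), without polysomal 4EGI-1 array 1, 2 or 3 (0.147, 0.108 and 0.101), and without polysomal control array 1, 2 or 3 (0.0672 to 0.0704). The Il7r call ended without cytoplasmic 4EGI-1 array 1 (0.104) or 2 (0.0537) and without polysomal 4EGI-1 array 1 (0.136), where the difference was 0.27. Malat1, a nuclear noncoding RNA, was the one of 3 listed that had a value. It read 11.1 to 11.8 on cytoplasmic and 10.1 to 10.3 on polysomal 4EGI-1 arrays, a difference that passed. On control arrays it read 10.5 to 11.4 in cytoplasmic and 10.4 to 10.6 in polysomal RNA, which overlapped and did not pass. The part of Malat1 in these results was not tested. Pik3ip1 and Bcl6 passed in control cells without cytoplasmic control array 2, with -0.30 (limma, adjusted p = 0.0261) and -0.27 (0.0278), and Foxo3 passed without cytoplasmic control array 3 (0.23; 0.0305) and after centring on array medians (0.25; 0.0414).

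Genes around the 8 were taken from 7 lists, on which some genes appear more than once. Counts of genes that passed can be read against all genes, of which 10.1% rose and 7.79% fell in cytoplasmic RNA and 13% rose and 12.1% fell in polysomal RNA. Of 15 tested relatives of the FOXO and KLF families, 1 rose and 2 fell in each fraction. The 2 that fell in cytoplasmic RNA were 4 without cytoplasmic control array 2, 1 when either control array 3 or 4EGI-1 array 2 was left out, and 0 without 4EGI-1 array 1. Klf7 rose in both, by 0.60 ± 0.10 (cytoplasmic) and 0.68 ± 0.10 (polysomal), and Klf3 changed by -0.37 ± 0.09 and -0.35 ± 0.09 (limma, adjusted p from 0.000203 to 0.0112). Foxo4, another FOXO gene, fell in cytoplasmic RNA (-0.30 ± 0.09; 0.0268) and Klf16 in polysomal RNA (-0.33 ± 0.10; 0.0209). The cytoplasmic calls ended for Klf3 without 4EGI-1 array 1 (0.0665) and for Foxo4 without control array 3 (0.105) or 4EGI-1 array 1 (0.0857) or 2 (0.0804). That of Foxo4 also ended without a filter (limma, adjusted p = 0.0509). The call of Klf16 ended without polysomal control array 1 (0.0505) or 2 (0.093) or polysomal 4EGI-1 array 2 (0.0757) or 3 (0.0608).

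The list around the PI3-kinase and AKT arm, which keeps FOXO proteins out of the nucleus, had 29 tested genes. It also holds genes that act against the arm, Inpp5d among them, so its counts have no single direction for FOXO proteins. Of the 29 genes, 1 rose and 8 fell in cytoplasmic RNA and 3 rose and 11 fell in polysomal RNA. The list medians were -0.14 and -0.12, against -0.03 for all genes in each fraction. Sgk1, a kinase that also phosphorylates FOXO proteins, changed by -0.54 ± 0.11 in cytoplasmic and -0.56 ± 0.11 in polysomal RNA (limma, adjusted p = 0.00299 and 0.00149). Pik3cb, a catalytic subunit of PI3-kinase, changed by -0.62 ± 0.125 in cytoplasmic and -0.51 ± 0.125 in polysomal RNA (limma, adjusted p = 0.00296 and 0.00646). Akt1, the kinase that phosphorylates FOXO proteins, changed by -0.49 ± 0.12 and -0.52 ± 0.12 (0.013 and 0.00577). The cytoplasmic call of Akt1 ended without cytoplasmic 4EGI-1 array 1 (0.0628) or 2 (0.0661). On the other side, the kinase gene Mtor rose by 0.80 ± 0.13 (0.000258) and the phosphatase gene Inpp5d, which removes the lipid made by PI3-kinase, by 0.45 ± 0.11 (0.00489), both in polysomal RNA. Xpo1, the exportin that carries FOXO proteins out of the nucleus, rose by 0.375 ± 0.08 in polysomal RNA (limma, adjusted p = 0.00345). In cytoplasmic RNA it rose by 0.29 ± 0.08 (0.0252). The cytoplasmic call of Xpo1 ended without control array 1 (0.0654) or 3 (0.0953) or 4EGI-1 array 1 (0.0646) or 2 (0.0916). The cytoplasmic count of 8 that fell was 4 with the cytoplasmic arrays fitted by themselves. It was 5 without cytoplasmic 4EGI-1 array 2 and 12 without cytoplasmic control array 2. The 1 that rose was 2 without cytoplasmic control array 2 or 4EGI-1 array 3. It was 0 without cytoplasmic control array 1 or 3 or 4EGI-1 array 1 or 2, and with the cytoplasmic arrays by themselves.

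Of 32 tested textbook FOXO targets other than the 8 genes, 5 rose and 9 fell in cytoplasmic RNA and 6 rose and 11 fell in polysomal RNA, so the list went both ways (medians -0.09 and -0.06). Without cytoplasmic 4EGI-1 array 1, the 9 that fell were 6. Gadd45a, a growth arrest gene, rose by 1.17 ± 0.14 (cytoplasmic) and 1.18 ± 0.14 (polysomal) (limma, adjusted p = 5.51e-05 and 2.55e-05). Sesn2, a stress-induced inhibitor of mTORC1, rose by 1.02 ± 0.16 and 0.89 ± 0.16 (0.000375 and 0.000676), and both genes are known targets of the stress factor ATF4 as well. Bnip3, a mitochondrial cell death and mitophagy gene, changed by -0.80 ± 0.15 and -1.14 ± 0.15 (0.0019 and 6.24e-05). Tnfsf10, which encodes the death ligand TRAIL, changed by -0.73 ± 0.10 and -0.76 ± 0.10 (0.000185 and 6.91e-05).

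Of 22 tested genes of homing and egress, 1 rose and 2 fell in cytoplasmic RNA and 2 rose and 2 fell in polysomal RNA. The 2 that fell in cytoplasmic RNA were 4 without cytoplasmic control array 2 and 5 without cytoplasmic 4EGI-1 array 3. Cd69, whose product pulls S1PR1 from the cell surface, rose by 0.85 ± 0.14 (cytoplasmic) and 0.69 ± 0.14 (polysomal) (limma, adjusted p = 0.000532 and 0.00145). Its signal was near the filter level, as for Klf2 and S1pr1. With the filter at the 50th percentile Cd69 had no value, and the counts that rose became 0 and 1. The chemokine receptor gene Ccr4 changed by -0.71 ± 0.08 and -0.57 ± 0.08 (3.45e-05 and 0.000133). The adhesion gene Icam2 fell in cytoplasmic RNA (-0.57 ± 0.10; 0.000943) and the integrin gene Itgae rose in polysomal RNA (0.47 ± 0.08; 0.000489). The integrin gene Itgb7 fell in polysomal RNA (-0.33 ± 0.09; 0.0125), which ended without polysomal control array 1 (0.0681) or polysomal 4EGI-1 array 1 (0.0693).

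Of 19 tested lymphocyte quiescence genes, 1 rose and 3 fell in cytoplasmic RNA and 2 rose and 7 fell in polysomal RNA (medians -0.09 and -0.05). In cytoplasmic RNA the 3 that fell were 5 without 4EGI-1 array 3, and the 1 that rose was 2 without control array 2 and 0 without control array 1. In cytoplasmic RNA the antiproliferative gene Tob1 (-0.45 ± 0.09) and Slfn2, a gene whose loss ends T cell quiescence (-0.43 ± 0.09), fell (limma, adjusted p = 0.00287 and 0.0034). Tob1 changed by -0.45 ± 0.09 in polysomal RNA as well (limma, adjusted p = 0.00191). In polysomal RNA Rc3h1, which encodes the RNA-binding protein roquin 1, changed by -0.52 ± 0.07 and the antiproliferative gene Btg2 by -0.46 ± 0.10 (7.3e-05 and 0.00315). The forkhead gene Foxj1 rose by 0.51 ± 0.10 in polysomal RNA (0.00109) and by 0.38 ± 0.10 in cytoplasmic RNA (0.0125). The latter ended without cytoplasmic control array 1 (0.0545) or cytoplasmic 4EGI-1 array 1 (0.0566). Tsc22d3, which encodes the glucocorticoid-induced leucine zipper, rose in polysomal RNA (0.42 ± 0.13; 0.0279), a call that ended without polysomal control array 1 (0.0598) or 3 (0.114) or polysomal 4EGI-1 array 1 (0.0671) or 3 (0.14).

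Of 15 tested genes of interleukin 7 receptor signalling, 1 rose and 2 fell in cytoplasmic RNA, and 3 rose and 3 fell in polysomal RNA. The 2 that fell in cytoplasmic RNA were 4 without cytoplasmic 4EGI-1 array 3 and 1 when control array 3, 4EGI-1 array 1 or 4EGI-1 array 2 was left out. Stat3, a signal transducer, rose by 0.34 ± 0.09 (cytoplasmic) and 0.64 ± 0.09 (polysomal) (limma, adjusted p = 0.0133 and 6.87e-05), and the phosphatase gene Ptprc, which encodes CD45, rose by 0.30 ± 0.07 in polysomal RNA (0.00523). The feedback inhibitor gene Socs3 fell by 0.48 ± 0.08 in cytoplasmic RNA (0.00119), and the kinase genes Pim1 and Pim2, which cytokine receptors induce, changed by -0.43 ± 0.09 and -0.41 ± 0.09 in polysomal RNA (0.0027 and 0.00328). Stat5a, one of the STAT5 genes, fell in cytoplasmic RNA (-0.33 ± 0.10; 0.0293). That call ended without control array 2 (0.061) or 3 (0.0718) or 4EGI-1 array 1 (0.105) or 2 (0.131). It also ended without a filter (limma, adjusted p = 0.0544).

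Of 12 tested partners and targets of BCL6, 1 rose and 1 fell in cytoplasmic RNA and 1 fell in polysomal RNA. The 1 that fell in cytoplasmic RNA was 2 when cytoplasmic control array 2 or 4EGI-1 array 3 was left out, and the 0 that rose in polysomal RNA (limma) was 1 without cytoplasmic control array 2 or 3 or polysomal 4EGI-1 array 2. In cytoplasmic RNA the corepressor gene Bcorl1 fell by 0.48 ± 0.08 (limma, adjusted p = 0.00092), and Hdac3, a histone deacetylase of corepressor complexes, fell by 0.43 ± 0.11 in polysomal RNA (0.0089). Cd80, a costimulatory ligand gene that BCL6 is known to repress, rose by 0.55 ± 0.15 in cytoplasmic RNA (0.0208). Averaged over its probe sets, the change of Cd80 was 0.15 (0.392), and the call also ended without control array 1 (0.065) or 3 (0.0903) or 4EGI-1 array 1 (0.07) or 2 (0.101).

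For the difference of effects, the 4EGI-1 effect on Mtor was larger by 0.86 ± 0.18 in polysomal RNA (0.80) than in cytoplasmic RNA (-0.06) (limma, adjusted p = 0.015). That call ended without cytoplasmic 4EGI-1 array 1 (0.0501) and without polysomal 4EGI-1 array 1 (0.0531) or 3 (0.0548). Inpp5d, Icam2, Itgae and Bcorl1 passed too, and lost the call in 8 to 10 of the 12 fits that left out 1 array. They also lost it without a filter (limma, adjusted p from 0.0657 to 0.0987) and with centring on array medians (0.0576 to 0.0961). With the 6 cytoplasmic arrays fitted by themselves, the cytoplasmic calls of Akt1, Klf3, Foxo4, Xpo1, Stat3, Stat5a and Cd80 also ended (limma, adjusted p from 0.0612 to 0.139).

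**Figure D3:**
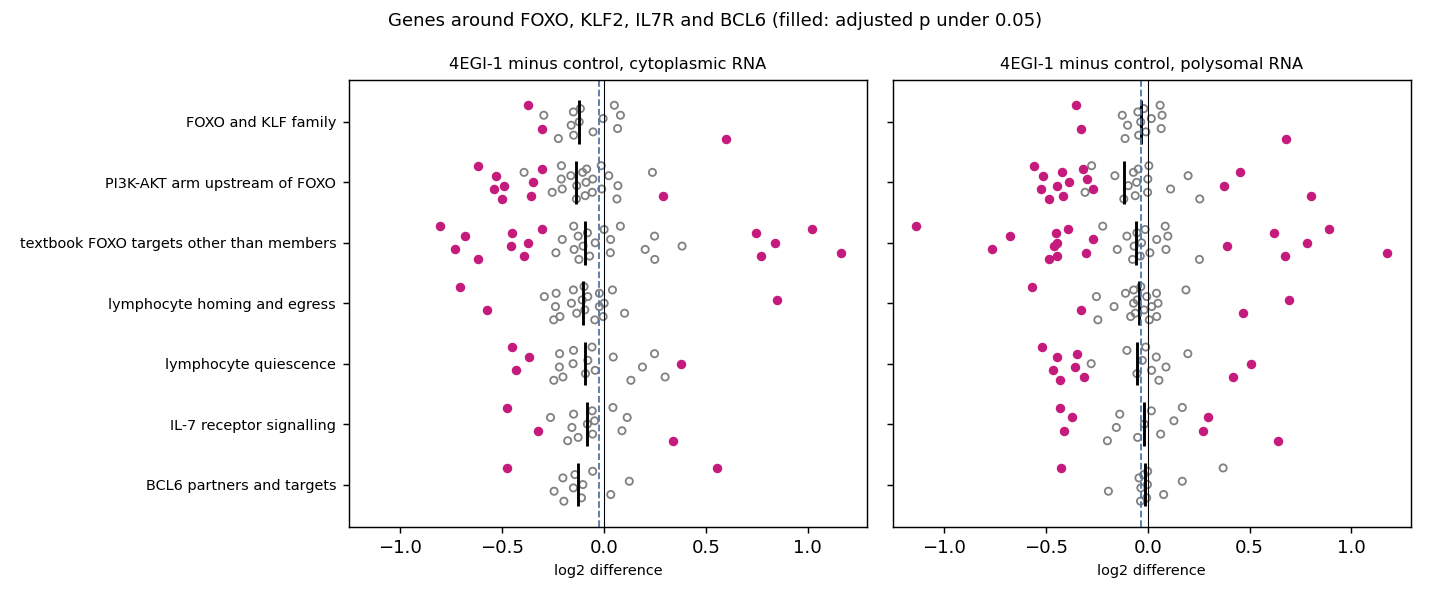
Log2 differences (4EGI-1 minus control, horizontal axes) of the tested genes of 7 lists in cytoplasmic and polysomal RNA, with 1 point per gene and vertical scatter only to part the points. Filled points passed at an adjusted p of 0.05, black bars are list medians and the dashed line is the median of all genes (-0.03 in each fraction). The 32 FOXO targets hold filled points on both sides, from -0.80 for Bnip3 to 1.17 for Gadd45a in cytoplasmic RNA.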

How the data were processed

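The deposited series table holds 1 log2 value per probe set and array for 34760 probe sets on 12 arrays, made by the authors with RMA per the submitters' processing notes. The RMA version is not stated in those notes, nor which arrays entered 1 normalization. Array medians lay between 6.40 and 6.56. Names came from the platform's annotation of its probe sets, updated by Entrez number from the RefSeq table of GRCm38.p6 (21640 had 1 symbol, 1321 several, 11799 none). Of the 19937 genes, 19855 were matched. The probe set with the highest mean represented a gene, and genes with a mean under the 40th percentile over all probe sets, 6.003, were left out (6757 genes). The 4 group means were fitted to the 12 arrays in R 4.3.3 by limma 3.58.1 (eBayes without a trend, prior 6.83 degrees of freedom). The scripts were tested on simulated data. Motif matches and sequences come from RefSeq promoter windows of GRCm38.p6.

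The 8 genes, the lists and tests were chosen with earlier results of these data known. Named from each list are up to 2 genes with the largest rise and up to 2 with the largest fall among those that passed in a treatment comparison, and the genes most correlated with each of the 8 over 12 arrays, leaving out placeholder symbols and small RNAs. Alternatives were other filters, normalizations, probe set summaries and variance models, a replicate block, fits of 6 arrays and leaving out each array.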

Additional observations from a re-analysis of the deposited data

How the results depend on the processing

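Over all alternatives, the fall of Bcl6 in cytoplasmic RNA passed, and 0 of the 8 genes passed for the difference of effects. Of the 8 genes, those called in polysomal RNA (1) became 2 with quantile normalization within fractions and 3 with the 6 polysomal arrays alone, and ranged from 0 to 2 with 1 array left out. Those called for polysomal against cytoplasmic RNA in 4EGI-1 cells (2) became 1 without a filter, with the 50th percentile filter, with quantile normalization of all arrays and with a trended, robust eBayes, 0 with the 6 arrays of that treatment alone, and 0 to 2 with 1 array left out. In control cells 0 became 1 with centring on array medians and 0 to 2 with 1 array left out. The stricter filter gave Klf2, S1pr1 and Il7r no value.

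Over all genes, the 385 called for the difference of effects became 242 without a filter and 200 to 670 with 1 array left out. In cytoplasmic RNA, 2352 became 1100 with that fraction alone and 1502 to 3093 with 1 array left out. In polysomal RNA, 3316 became 5031 with that fraction alone. For polysomal against cytoplasmic RNA in 4EGI-1 cells, 2202 became 1046 to 2648 with 1 array left out. The cause was not tested.

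Directions turned only for small values that passed in neither fit. With quantile normalization of all arrays, turned values were Klf2 0.0227 for the difference of effects, Ccr7 0.0175 and Klf2 0.0258 for polysomal against cytoplasmic RNA of control cells, Ccr7 0.0574 and Klf2 0.0485 for the same comparison after 4EGI-1. With quantile normalization within fractions, turned values were Klf2 0.0226 for the difference of effects. With centring on array medians, turned values were Pik3ip1 -0.0138 for the cytoplasmic effect, Klf2 0.0194 for the difference of effects, Ccr7 0.021 and Klf2 0.0265 for polysomal against cytoplasmic RNA of control cells, Ccr7 0.0716 and Klf2 0.0459 for the same comparison after 4EGI-1. With 1 array left out, ranges that crossed 0 were, for the cytoplasmic effect, Ccr7 -0.123 to 0.0008, Pik3ip1 -0.0733 to 0.105, S1pr1 -0.135 to 0.113, Klf2 -0.0526 to 0.0913. For the polysomal effect they were Klf2 -0.0224 to 0.104, Ccr7 -0.0808 to 0.0098, S1pr1 -0.0656 to 0.153. For the difference of effects they were Ccr7 -0.0426 to 0.0816, S1pr1 -0.0567 to 0.191, Foxo3 -0.0045 to 0.0891, Klf2 -0.0646 to 0.0937, Pik3ip1 -0.0228 to 0.156, Foxo1 -0.168 to 0.0398. For polysomal against cytoplasmic RNA of control cells they were Ccr7 -0.108 to 0.0166, S1pr1 -0.0481 to 0.152, Klf2 -0.145 to 0.013. For the same comparison after 4EGI-1 they were Ccr7 -0.0818 to 0.0253, Foxo1 -0.0902 to 0.117, S1pr1 -0.0226 to 0.225.

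Array numbers were not taken to pair the samples, and the values do not settle whether they do. Of 18 same-number pairs, 9 had deviations correlated above 0.1 (range -0.22 to 0.56), and 7 of 12 arrays correlated best with their own number. Pairs of number 2 were all above 0.1 (0.14 to 0.56), while those of number 1 lay between -0.22 and 0.08. Those of number 3 lay between -0.055 and 0.52. The first principal component of the deviations from group means held 44.8% of their variance. On it, cytoplasmic arrays 2 (0.534 control, 0.377 4EGI-1) lay opposite cytoplasmic arrays 3 (-0.477 and -0.545). The polysomal arrays lay between -0.074 and 0.076. Pairs of different numbers ranged from -0.70 to 0.41. With the replicate block, 2 of the 8 genes (Bcl6 and Foxo1, the latter at -0.25, limma adjusted p = 0.0284) were called in polysomal RNA, and 2774, 3645, 472, 4188 and 2582 genes were called in the cytoplasmic, polysomal, difference, control and 4EGI-1 comparisons. The number of arrays, 3 per group, limits the precision, and Klf2, S1pr1 and Il7r lay near the filter level.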
